A study of Mus musculus with 4 samples.

Results

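Open chromatin was mapped by ATAC-seq, in which a transposase cuts accessible DNA, and the regions described here are those open in every library at an end of a protein-coding gene. Peaks of the 4 deposited lists were merged wherever they overlapped by at least 1 bp on chromosomes 1 to 19, X and Y, and a region was kept when all 4 lists called it and its centre lay within 1000 bp of either end of a gene span (mm10). The regions were thus chosen by the peak calls of the same 4 libraries whose widths are compared. This gave 13375 regions, of 75395 called in all 4 lists and 113056 merged regions in all. The libraries came from endothelial cells of mouse lung, sorted by flow cytometry: 2 of the Dnmt3a knockout (KO) and 2 of the wild type (WT). The labels give the genotype only as KO or WT, so the allele, how it was deleted, and the strain, age and sex of the animals are not given here. Whether libraries of 1 genotype are separate animals is likewise not stated, so p-values measure only the spread between these libraries. The only measurement in the lists is the width of a peak in base pairs. The width of a region in a library was the summed width of that library's peaks in it, and no read count or score is given, so depth is unknown.

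Gene ends carry different regulatory DNA. At the start lies the promoter, where nucleosomes are displaced for the transcription machinery, and most mammalian promoters of broadly expressed genes lie in CpG islands, stretches rich in the dinucleotide CG that normally stay free of DNA methylation. At the far end lies the polyadenylation site, where open chromatin is less regular. Dnmt3a encodes an enzyme that places new methyl groups on the cytosine of CG dinucleotides, which in most of the genome are methylated.

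Promoter sequences of 8 genes show the kinds of start behind the widths that follow. Each is the 250 bases before the annotated start, from RefSeq (GRCm38.p6, the mm10 assembly), written 5′ to 3′ on the strand of the gene, and capitals mark each CG dinucleotide. Cited2 (chr10:17722978-17723227, plus strand), encoding a transcriptional co-regulator that restrains the hypoxia response, and Kdm7a (chr6:39206774-39207023, minus strand), encoding a histone demethylase, had some of the widest regions. They hold 26 and 56 CG dinucleotides.
Cited2: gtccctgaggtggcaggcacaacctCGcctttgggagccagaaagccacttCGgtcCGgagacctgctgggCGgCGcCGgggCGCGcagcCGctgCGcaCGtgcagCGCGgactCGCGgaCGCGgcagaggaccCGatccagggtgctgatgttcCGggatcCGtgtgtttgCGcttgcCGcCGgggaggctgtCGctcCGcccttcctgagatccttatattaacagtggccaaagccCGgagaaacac
Kdm7a: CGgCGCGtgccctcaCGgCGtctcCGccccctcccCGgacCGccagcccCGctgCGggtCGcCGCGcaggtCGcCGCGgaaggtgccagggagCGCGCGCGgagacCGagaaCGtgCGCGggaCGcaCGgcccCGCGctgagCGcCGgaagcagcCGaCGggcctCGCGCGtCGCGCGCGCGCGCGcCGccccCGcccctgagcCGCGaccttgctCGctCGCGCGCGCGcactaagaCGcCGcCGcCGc
Prdm11 (chr2:93046166-93046415, minus strand), encoding a PR-domain protein, and Anxa1 (chr19:20390672-20390921, minus strand), encoding an annexin that dampens inflammation, had narrow regions. Their CG counts, 32 and 2, lie far apart.
Prdm11: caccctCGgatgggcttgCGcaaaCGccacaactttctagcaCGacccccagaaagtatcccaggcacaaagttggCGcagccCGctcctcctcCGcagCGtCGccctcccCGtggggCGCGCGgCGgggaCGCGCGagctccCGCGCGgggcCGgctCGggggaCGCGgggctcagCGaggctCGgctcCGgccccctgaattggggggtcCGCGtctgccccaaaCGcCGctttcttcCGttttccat
Anxa1: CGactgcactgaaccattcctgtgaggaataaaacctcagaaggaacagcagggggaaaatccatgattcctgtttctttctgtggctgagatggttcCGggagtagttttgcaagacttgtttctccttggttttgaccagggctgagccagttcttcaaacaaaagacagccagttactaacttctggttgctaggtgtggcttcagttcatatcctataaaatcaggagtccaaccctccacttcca
Esr1 (chr10:4611739-4611988, plus strand), encoding oestrogen receptor alpha, and Tpp1 (chr7:105752236-105752485, minus strand), encoding a lysosomal peptidase, had regions wider in both KO libraries. They hold 4 and 2 CG dinucleotides.
Esr1: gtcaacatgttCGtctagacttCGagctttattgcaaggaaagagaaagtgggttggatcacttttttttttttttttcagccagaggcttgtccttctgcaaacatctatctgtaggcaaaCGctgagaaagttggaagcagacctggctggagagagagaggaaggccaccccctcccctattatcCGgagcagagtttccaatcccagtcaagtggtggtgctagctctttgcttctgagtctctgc
Tpp1: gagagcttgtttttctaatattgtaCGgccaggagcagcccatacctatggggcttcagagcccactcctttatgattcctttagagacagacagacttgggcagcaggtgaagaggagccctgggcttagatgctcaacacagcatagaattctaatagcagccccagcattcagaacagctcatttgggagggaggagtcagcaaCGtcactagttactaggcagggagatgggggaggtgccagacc
Fam107a (chr14:8317608-8317857, minus strand), encoding an actin-associated protein, and Cox6b2 (chr7:4753095-4753344, minus strand), encoding a testis form of a cytochrome c oxidase subunit, had regions narrower in both KO libraries. They hold 11 and 8.
Fam107a: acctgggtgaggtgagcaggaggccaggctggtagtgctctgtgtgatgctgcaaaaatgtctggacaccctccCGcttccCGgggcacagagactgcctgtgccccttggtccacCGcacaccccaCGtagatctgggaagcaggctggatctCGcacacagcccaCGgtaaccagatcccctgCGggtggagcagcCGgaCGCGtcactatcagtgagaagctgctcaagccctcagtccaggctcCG
Cox6b2: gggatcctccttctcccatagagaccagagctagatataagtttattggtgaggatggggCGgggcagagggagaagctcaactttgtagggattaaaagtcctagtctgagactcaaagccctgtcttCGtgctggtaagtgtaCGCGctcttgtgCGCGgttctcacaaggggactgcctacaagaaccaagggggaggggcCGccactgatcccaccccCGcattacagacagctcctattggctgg

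The lists held 85091 and 100879 peaks in the KO libraries, against 101442 and 97627 in the WT libraries, and the narrowest peak of each was 201 bp. KO replicate 1 stood apart, with the fewest peaks, the highest median width at gene ends and the fewest regions divided into several peaks. Of the shared regions at gene ends, 2.98% and 8.95% held 2 or more peaks in the KO libraries, against 5.59% and 4.16% in the WT libraries. The 2 KO libraries lay on either side of both WT libraries in this share. Of all merged regions at gene ends, 885 were called in 1 list, 506 in 2, 827 in 3 and 13375 in all 4, so that 85.8% of them belonged to the shared set. Among all regions called in all 4 lists, gene ends made up 17.7% (exact 95% interval 17.5 to 18%, counting error only), and among those called in a single list 5.85% (5.48 to 6.24%). The calls and the location defined the set, so these shares are descriptions.

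Regions at gene ends were wider than shared regions elsewhere in every library. Their median width was 809 and 735 bp in KO libraries, against 782 and 800 bp in WT libraries, while the 62020 shared regions away from gene ends had medians of 467 and 446 bp in the KO libraries, against 477 and 480 bp in the WT libraries. No library's median elsewhere came near its median at gene ends. The log2 ratio of the medians averaged 0.74 ± 0.036 (SD, n = 4 libraries), or 1.67-fold, and was above 0 in 4 of 4 libraries (two-sided exact sign-flip permutation p = 0.125, the smallest that 4 libraries allow). The ratio was 0.79 and 0.72 in KO libraries, against 0.71 and 0.74 in WT libraries, a difference of 0.032 that did not exceed the spread between libraries (two-sided exact permutation p = 0.667). Regions of at least 1000 bp made up 29.6% and 22.2% of the members in the KO libraries, against 26.5% and 27.6% in the WT libraries. Elsewhere such regions made up 6.01% and 4.12% in KO libraries, against 5.18% and 5.34% in WT libraries. Gene ends thus held 23.9% and 21.8% of all base pairs in peaks in the KO libraries, against 21.6% and 22.2% in the WT libraries. Calls in all 4 lists chose the regions, at gene ends and elsewhere alike, and how far the widths depend on that choice was not tested.

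Regions at gene starts were wider than those at far ends. With the strand known from the RefSeq promoter table for 17492 of 21887 protein-coding genes, 8797 regions (65.8%) lay at starts only, 1248 (9.33%) at far ends only, 432 at a start and a far end, 2567 near genes without a strand in that table, and 331 near genes with and without one. Regions at starts had medians of 859 and 775 bp in KO libraries, against 824 and 840 bp in WT libraries. Those at far ends had medians of 446 and 434 bp in the KO libraries, against 461.5 and 461 bp in the WT libraries. The distributions of far ends and of regions elsewhere lay nearly on each other, and those of starts lay above both. The log2 ratio of start to far end averaged 0.87 ± 0.052 (SD, n = 4 libraries), or 1.83-fold, and was above 0 in every library (exact sign-flip permutation p = 0.125, the smallest possible), with 0.95 and 0.84 in KO libraries, against 0.84 and 0.87 in WT libraries. Far-end regions with no annotated start within 1000 bp numbered 1223 and were slightly narrower than shared regions elsewhere in all 4 libraries, by a mean log2 difference of -0.06 ± 0.013 (SD, n = 4 libraries; exact sign-flip permutation p = 0.125).

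**Figure D1:**
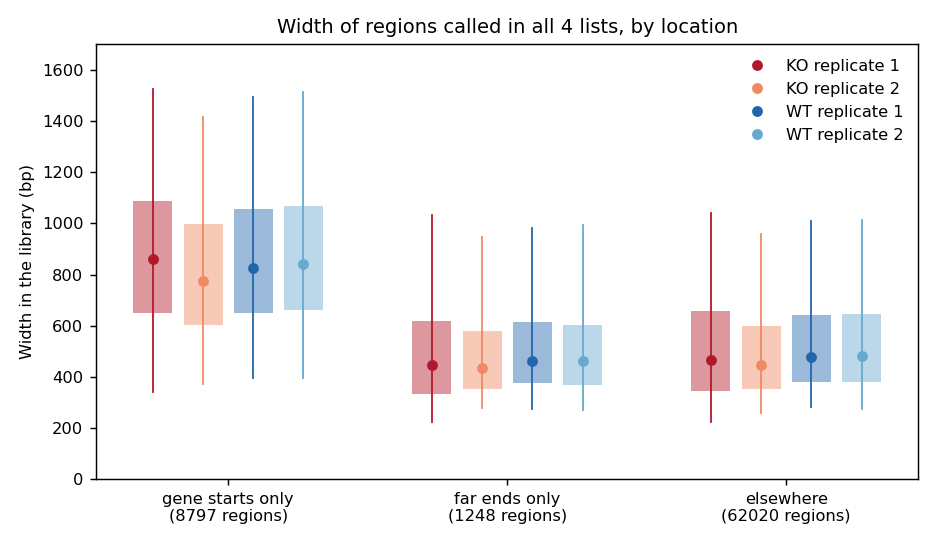
Width (bp, linear axis) of regions called in all 4 lists at gene starts only (8797), at far ends only (1248) and elsewhere (62020), for each library, KO left of WT. Points are medians, boxes the range from the 25th to the 75th percentile and lines the range from the 5th to the 95th percentile. Starts have medians of 775 to 859 bp, and far ends and other regions 434 to 480 bp.

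Starts that 2 genes share on opposite strands were wider again. The 859 regions at such divergent starts had medians of 960 and 855 bp in the KO libraries, against 922 and 937 bp in the WT libraries. The 7917 regions at the start of 1 gene had medians of 846 and 764 bp in KO libraries, against 812 and 829 bp in WT libraries. Every library showed the same order, with a mean log2 ratio of 0.18 ± 0.0097 (SD, n = 4 libraries), or 1.13-fold (exact sign-flip permutation p = 0.125). A merged region was counted once, however many genes it served: 1811 regions lay near the ends of 2 or more genes.

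Regions at the start of 1 gene reached further into the gene than upstream of it. The start is here the outermost base of the gene span. Starts of shorter transcripts inside the span were not considered, and their part in this asymmetry was not tested. Their centres lay at a median of 117 bp downstream of the start (quartiles -21 and 284 bp), 71.6% were centred downstream, and 6531 of 7917 (82.5%) covered the start base itself in all 4 lists. The median reach upstream was 303 and 282 bp in the KO libraries, against 292 and 296 bp in the WT libraries. The median reach into the gene was 536 and 488 bp in KO libraries, against 523 and 535 bp in WT libraries. Both distances were longest in KO replicate 1 and shortest in KO replicate 2, with the WT libraries between them. The log2 ratio of upstream to downstream reach averaged -0.83 ± 0.027 (SD, n = 4 libraries) and was below 0 in 4 of 4 libraries (exact sign-flip permutation p = 0.125). The KO minus WT difference was -1.5 bp upstream and -17 bp downstream, both within the spread of the KO libraries (two-sided exact permutation p = 1 for each, where 0.333 is the smallest possible).

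**Figure D2:**
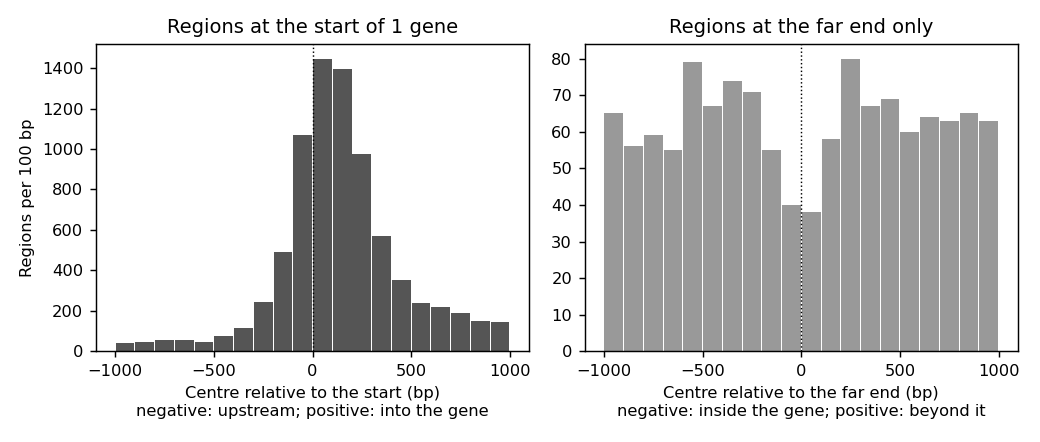
Number of regions (per 100 bp) by distance of the region's centre from the gene start (left, 7917 regions at the start of 1 gene) and from the far end (right, 1248 regions). Centres pile up just inside the start, with 1447 in the first 100 bp, whereas at far ends the counts are spread over the window and lowest next to the end itself.

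Genes with a shared region at the start had promoters richer in CG than genes without. A shared region lay at either end of 13076 of 21887 genes (59.7%), at the start of 9957 of the 17492 genes with a known start (56.9%), at the far end of 1793 (10.3%) and at both ends of 1318. Over the 300 bases around the start, 250 before and 50 after, genes with a shared region there held a median of 21 CG dinucleotides (quartiles 13 and 29), against 3 in the 7535 genes without. The median GC content was 61.3% at starts with a shared region and 48.0% at starts without. An observed over expected CG ratio of at least 0.6, a usual mark of a CpG island, was met by 73.6% of starts with a shared region and 15.1% of starts without. The share of genes with a shared region climbed with the CG count, being 11% of 5097 genes with 0 to 4 dinucleotides, 40.8% with 5 to 9, 78.1% with 10 to 19, 87.5% with 20 to 29 and 87.9% of 2615 genes with 30 to 65.

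Width followed the same order. Starts with 0 to 4 CG dinucleotides had median widths of 644 and 589 bp in the KO libraries, against 625 and 643 bp in the WT libraries, whereas starts with 30 to 65 had 1013 and 922 bp in KO libraries, against 986 and 1000 bp in WT libraries. No library's median in the CG-poor class reached any library's median in the CG-rich class. Across 9957 genes, which share libraries and base composition and are not independent, Spearman's rho between CG count and width was 0.31, between the length of the gene span and width 0.11, and between CG count and the log2 KO minus WT difference in width -0.04. Prdm11, whose region is among the narrowest in spite of 32 CG dinucleotides, is an exception to the order of the classes, with 214 and 260 bp in KO libraries, against 222 and 230 bp in WT libraries. Anxa1, with 2 such dinucleotides in the bases shown, had 201 and 208 bp in the KO libraries, against 250 and 316 bp in the WT libraries.

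**Figure D3:**
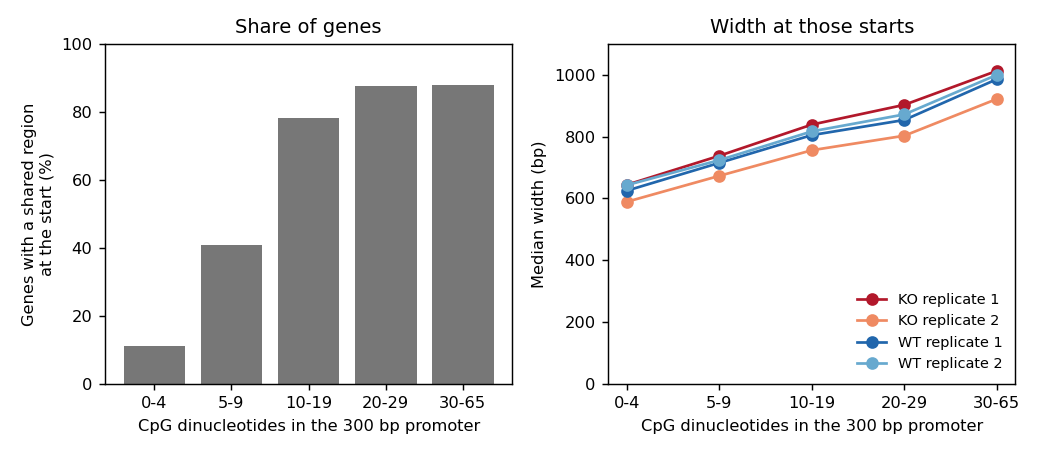
Share of genes with a shared region at the start (%, bars from 0) and median width of those regions (bp) in each library, by the number of CG dinucleotides in the 300 bp promoter. The share climbs to 87.9% and the width to between 922 and 1013 bp in the class with 30 to 65, and KO replicate 2 lies lowest in every class.

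Short letter patterns of known promoter elements differed between starts with and without a shared region. Each was searched on both strands of the same 300 bases, and a match is a string of letters and not a bound site. The GC box core GGGCGG, the pattern of SP and KLF factors, stood in 66.3% of starts with a shared region, in 19.9% of those without and in 46.3% of all. It stood in 55.9% of the 2490 narrowest starts with a region and in 73.5% of the 2489 widest. The ETS pattern CCGGAAGT stood in 8.21% of starts with a region, 1.41% of those without and 5.28% of all. Both patterns contain CG, which starts with a region hold more of. Among patterns without CG the order varied. The YY1 pattern AAGATGGC stood in 4.45% of starts with a region, 1.57% of those without and 3.21% of all, the same way as the patterns with CG. TATAAA stood in 6.79% of starts with a region, 22.0% of those without and 13.3% of all, the AP-1 pattern TGANTCA in 4.54%, 10.3% and 7.03%, and CCAAT in 39.2%, 39.1% and 39.2%. The shorter ETS pattern AGGAAG, which lacks CG, stood in 31.6%, 37.9% and 34.3%.

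The 12 widest regions were at least 1914 bp wide in every library. The widest of all lay at the far end of the predicted gene Gm20783 (chr9:124422487-124425914), with 3418 and 2691 bp in the KO libraries, against 3075 and 3200 bp in the WT libraries. Cited2 (chr10:17722033-17724631) had 2574 and 2309 bp in KO libraries, against 2377 and 2392 bp in WT libraries. Nrp1, a co-receptor for VEGF and semaphorins, had a region at its start (chr8:128356942-128359488) with 2360 and 2097 bp in the KO libraries, against 2321 and 2513 bp in the WT libraries. In all 3 the KO and WT widths, as called and before normalisation, overlapped. After normalisation, both KO widths lay above both WT widths at Cited2 and below at Nrp1 (limma adjusted p = 0.934 for each). The others of the 12 widest lay at Tfap4, a helix-loop-helix transcription factor, Nisch, Phldb1, Kdm7a, Arhgef17, Tiparp, an ADP-ribosyltransferase induced by the aryl hydrocarbon receptor, Tll1, Atxn1 and the far end of Bad, a pro-apoptotic BCL2 family member. Their mean widths (geometric, over 4 libraries) lay between 2174 and 2367 bp. The 12 narrowest had mean widths of 202 to 234 bp, near the 201 bp floor of the lists, and 5 of them lay at far ends, those of Gm52720, Dcaf17, Dusp3, Pln and Cdc42ep5. The narrowest was at the start of Lyzl6, a lysozyme-like gene, with 203 and 202 bp in KO libraries, against 201 bp in WT libraries. At this floor a width carries no information on size.

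By function, genes of basic cell machinery nearly always had a shared region at an end. All 25 translation initiation factor genes had one, as did 30 of 31 proteasome subunit genes, 45 of 48 ribosomal protein genes, 37 of 39 genes of the respiratory chain and ATP synthase, 26 of 27 genes of RNA polymerase II and its general factors, and 29 of 31 splicing factor genes, beside 59.7% of all genes. The median widths differed between these lists. Translation initiation factors had 1003.5 and 864 bp in the KO libraries, against 951.5 and 966 bp in the WT libraries. Proteasome subunits had 805 and 697.5 bp in KO libraries, against 774.5 and 789 bp in WT libraries, close to the medians of all members. The widest region counted for a splicing factor lay 966 bp from the start of Hnrnpk, an RNA-binding protein, and nearer to an end of Rmi1, with 1878 and 1902 bp in the KO libraries, against 1919 and 1916 bp in the WT libraries.

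Chromatin regulators were among the lists with wide regions. By the median of the mean width over the 4 libraries (geometric), Polycomb and Trithorax subunits stood first of the 34 lists with 1049 bp, DNA methylation genes had 964 bp and immediate early and stress genes 959 bp. Polycomb and Trithorax subunits, which write and read histone methylation, had a shared region at 34 of 36 genes, with medians of 1075 and 984.5 bp in KO libraries, against 1054 and 1028 bp in WT libraries. Genes that write, read or erase DNA methylation had one at 18 of 22 genes, with 941 and 888 bp in the KO libraries, against 985.5 and 981.5 bp in the WT libraries. Tet3, which oxidises methylcytosine, was the widest of these with 1815 and 1653 bp in KO libraries, against 1685 and 1654 bp in WT libraries. Immediate early and stress genes had one at 27 of 28 genes, with 1020 and 919 bp in the KO libraries, against 939 and 916 bp in the WT libraries. Their median was above that of the DNA methylation list in both KO libraries and below it in both WT libraries. Region by region, after normalisation, the median log2 KO minus WT difference was near 0 in both lists. It was 0.0009 for DNA methylation genes and 0.02 for immediate early and stress genes. Egr1, a growth-induced zinc finger factor, had the widest region of the immediate early and stress list. Its widths were 1813 and 1812 bp in KO libraries, against 1913 and 1905 bp in WT libraries.

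Endothelial genes nearly all had a shared region, often a narrow one. All 25 pan-endothelial genes had a shared region at an end, 39 regions in all, with medians of 587 and 557 bp in the KO libraries, against 589 and 588 bp in the WT libraries, below the members' 735 to 809 bp. The region at the start of Flt1, a VEGF receptor, had 1526 and 1322 bp in KO libraries, against 1529 and 1544 bp in WT libraries. Cldn5, the tight junction protein of endothelium, had 1436 and 1322 bp in the KO libraries, against 1461 and 1454 bp in the WT libraries. Both were among the wider ones, with KO replicate 2 the narrowest library. Egfl7, a secreted endothelial factor, had a narrow one, with 267 and 336 bp in KO libraries, against 338 and 329 bp in WT libraries. Near the median of the list, the adhesion molecule Pecam1 had 596 and 597 bp in the KO libraries, against 559 and 594 bp in the WT libraries. Coverage was also complete for 15 arterial and 17 general capillary genes, and was 28 of 32 for endothelial transcription factors, 21 of 22 for VEGF and angiogenesis genes, 24 of 25 for Notch pathway genes and 28 of 31 for BMP and TGF-beta genes. Foxf1, a forkhead factor of lung vessels, had the widest region among the transcription factors, with 1796 and 1782 bp in KO libraries, against 1812 and 1876 bp in WT libraries. Venous genes had a region at 11 of 14, lymphatic endothelial genes at 10 of 13, and aerocyte genes, those of the large alveolar capillary cell, at 12 of 14. Endothelial junction genes had one at 19 of 22, inflammation and leukocyte adhesion genes at 19 of 24, interferon and antigen presentation genes at 26 of 28 and hypoxia pathway genes at 17 of 22.

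The cell type label was checked against markers of other cell types. Of 103 such genes in 7 lists, 36 had a shared region at an end, in 43 regions with medians of 494 and 536 bp in the KO libraries, against 578 and 576 bp in the WT libraries. Coverage was 8 of 20 for epithelial, 5 of 15 for fibroblast, 8 of 13 for mural, 5 of 16 for lymphocyte, 3 of 15 for myeloid, 4 of 13 for platelet and erythroid and 3 of 11 for pan-leukocyte genes. Mural markers, at 61.5%, were covered about as often as all genes (59.7%), and every other list of these was below that share. Epcam, Sftpc, Spi1, Cd4 and Pdgfrb were among those with a region, although that of Sftpc lay nearer to an end of Bmp1 and that of Cd4 nearer to an end of Gpr162, and Ptprc, Cdh1, Col1a1, Acta2, Lyz2 and Gata1 among those without. Fewer cells of another type and less open chromatin per cell cannot be told apart in such bulk libraries. Coverage of all 12 chosen endothelial markers, among them Cdh5, Tek, Kdr and Tie1, went with the label.

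**Figure D4:**
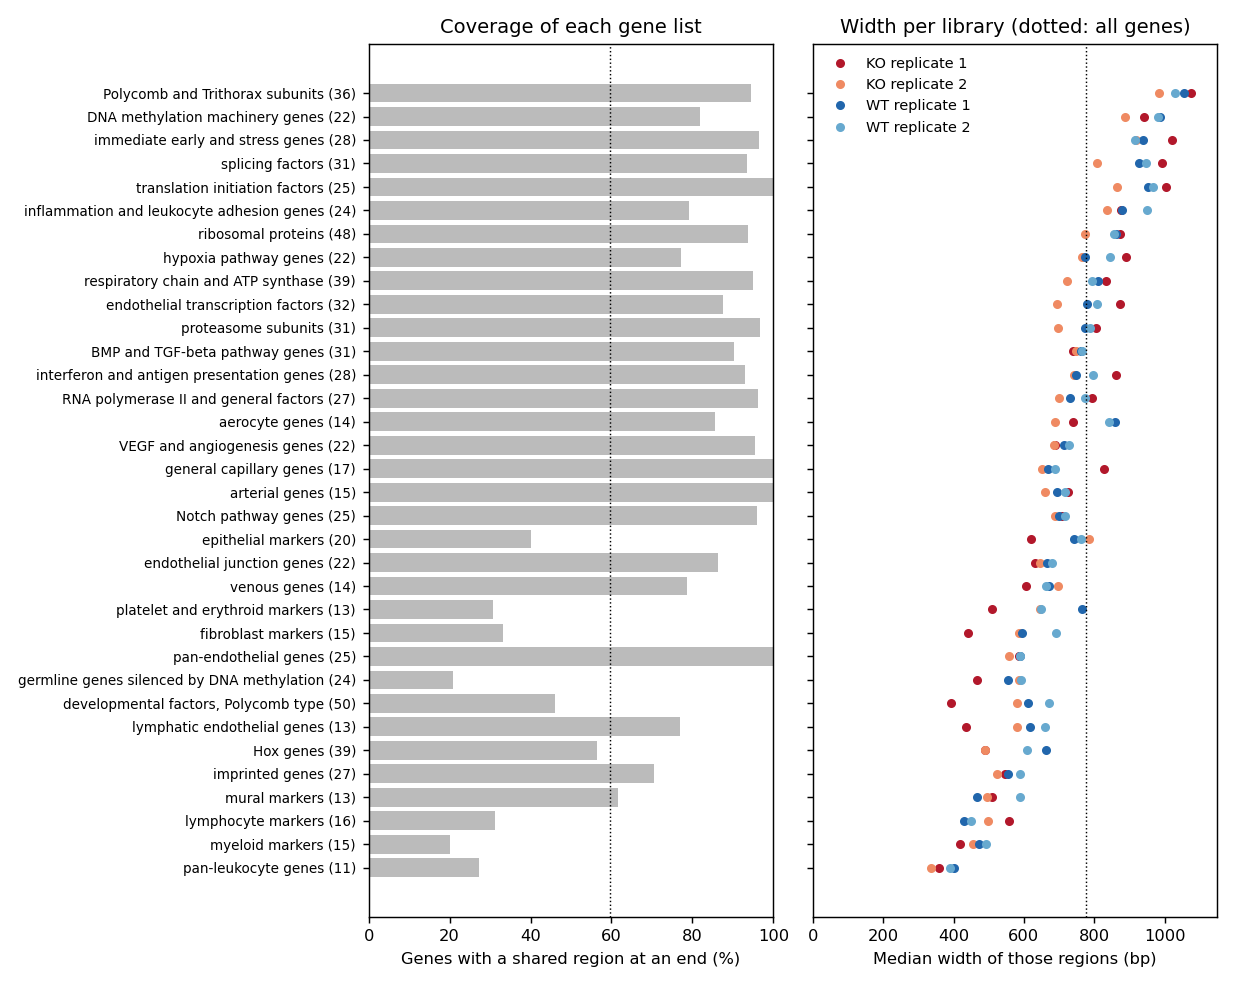
Share of the genes of each list with a shared region at an end (%, left, list size in brackets) and median width of those regions in each library (bp, right), lists ordered by width. Dotted lines mark 59.7% of all genes and 776 bp, the median of all members. The Polycomb and Trithorax, DNA methylation, splicing and translation initiation lists lie right of the line in every library, and most markers of other cell types lie left of both lines.

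Large gene families spanned the whole range. Of 1110 olfactory receptor genes 10 had a shared region at an end (0.901%) and of 355 vomeronasal receptor genes 2 (0.563%), while 75 of 78 mitochondrial ribosomal protein genes (96.2%), 63 of 69 histone genes (91.3%) and 325 of 397 zinc finger Zfp genes (81.9%) had one. Keratins (7 of 53) and cytochrome P450 genes (28 of 99) lay in between. On the X chromosome 40.9% of genes had a region at an end, beside 48.2 to 69.4% on the autosomes, and on the Y chromosome 1 gene of 256.

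Between the genotypes, no region at a gene end passed the test of a difference in width. Of 13375 regions 0 passed an adjusted p of 0.05 (limma on quantile-normalised log2 width over all 75395 shared regions, Benjamini-Hochberg; percent called over all of them, 0), and the lowest adjusted p was 0.506. At an unadjusted p of 0.05, limma marked 500 members (3.74%), beside 5.35% of all shared regions. These comprised 125 wider in KO (0.935%, beside 2.28% of all shared regions) and 375 narrower in KO (2.80%, beside 3.08%). The split depends on the scaling: 25.0% of the marked members were wider in KO after quantile normalisation, 31.5% after median scaling and 9.72% with no normalisation. With 2 libraries a group the fit could have missed much. In simulated data of 75395 regions a planted log2 shift of 1 was recovered in 0 of 100 regions, and a shift of 2 in 43 of 100. The shifts were planted in wider members only, and each region's simulated spread was that seen in its own 4 libraries. Recovery in the real data may differ.

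The differences between the genotype means were smaller than those between the 2 KO libraries. The median log2 KO minus WT difference over the members was 0.00 (5th to 95th percentile -0.31 to 0.21). Quantile normalisation gives every library the same distribution over all shared regions, so a median near 0 was largely set in advance. Over all shared regions the median was 0.0093 after it and -0.047 with no normalisation. The normalised difference was smaller than 0.25 in size for 11997 members (89.7%, against 81.1% of shared regions elsewhere). The median absolute log2 difference was 0.14 between the 2 KO libraries, 0.052 between the 2 WT libraries and 0.065 between the genotype means, each the average of 2 libraries. The KO libraries thus lay further from each other than the genotype means did. A mean of 2 libraries varies less than 1 library, so this order does not measure an effect of genotype. Shared regions elsewhere had the same order, with 0.18 between the KO libraries, 0.094 between the WT libraries and 0.10 between the genotype means. The library medians averaged 772 ± 52.3 bp in KO and 791 ± 12.7 bp in WT (SD, n = 2 each), a KO minus WT difference of -19 bp (two-sided exact permutation p = 1, smallest possible 0.333). Both KO widths exceeded both WT widths, after normalisation, in 2377 members (17.8%, beside 20.3% of all shared regions), and both lay below in 1895 (14.2%, beside 14.8%). At far ends only, 302 of 1248 regions (24.2%) had both KO widths above and 163 (13.1%) both below.

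The marked regions were chosen for their difference, so their location and sequence are given with no test. Of the 125 wider in KO, 37 (29.6%) lay at far ends only and 56 (44.8%) at starts only, beside 9.33% and 65.8% of all members. The CG count of their promoters had a median of 11 (58 regions at starts in the table), against 21 over all members. Of the 375 narrower in KO, 28 (7.47%) lay at far ends only and 246 (65.6%) at starts only, with a median CG count of 21 (259 regions). The median widths were 664 and 599 bp in KO libraries, against 446 and 449 bp in WT libraries for regions wider in KO, and 607 and 624 bp in the KO libraries, against 854 and 867 bp in the WT libraries for those narrower in KO.

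The 12 regions wider in KO with the smallest p lay at genes of varied function. At the start of Esr1 (chr10:4611793-4613090), whose 250 bases before the start hold 4 CG dinucleotides, the region was 1178 and 1013 bp wide in KO libraries, against 310 and 351 bp in WT libraries. The groups lay far apart, by a log2 difference of 1.81 ± 0.11 (SE, limma adjusted p = 0.506). At Rbfox2, a splicing regulator, it was 805 and 790 bp in the KO libraries, against 365 and 319 bp in the WT libraries, a log2 difference of 1.31 ± 0.11 (SE). At the start of Tpp1 (chr7:105751411-105752506) it was 922 and 834 bp in KO libraries, against 523 and 597 bp in WT libraries, a log2 difference of 0.69 ± 0.096 (SE). With a library's widest single peak in place of the summed width, the log2 difference was 1.05 at Esr1 and 0.33 at Tpp1 (limma adjusted p = 0.948 and 0.951), so both values depend on how peaks within a region are added up. None of these passed the adjusted threshold, although the KO and WT widths did not overlap, which the choice of regions fixed. The other 9 lay at Psma8, a testis proteasome subunit, Mylpf, a fast muscle myosin light chain, Znrf1, Unc13d, which acts in granule exocytosis, Pla2g4e, Cdh24, a cadherin, Clec3b, 2200002D01Rik and Aldh16a1, with log2 differences of 0.52 to 1.65. Of these, Mylpf, Znrf1 and Aldh16a1 had 0.71, 0.51 and 0.33 with the widest single peak, each less than its value from summed widths by over 1.5 times. Mylpf, Znrf1, Pla2g4e and Cdh24 had the region at the far end. Clec3b was at the list floor of 201 bp in WT replicate 1.

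The 12 regions narrower in KO with the smallest p were mostly at starts, as were the members as a whole (65.8% at starts only). At Fam107a (chr14:8317044-8317826) the region was 201 and 223 bp wide in the KO libraries, the list floor in KO replicate 1, and 640 and 677 bp in the WT libraries, a log2 difference of -1.57 ± 0.11 (SE, limma adjusted p = 0.506). At Cox6b2 (chr7:4752412-4753419) it was 512 and 502 bp in the KO libraries, against 953 and 1008 bp in the WT libraries, a log2 difference of -0.91 ± 0.078 (SE). At the start of Dkk2, an arterial Wnt modulator, it was 269 and 336 bp in KO libraries, against 794 and 679 bp in WT libraries, a log2 difference of -1.18 ± 0.14 (SE). In all 3 both KO libraries were below both WT libraries. The other 9 lay at Gm45623, Adra1d, an alpha-1 adrenergic receptor, Elfn2, Fam189a1, Slc25a20, the mitochondrial carnitine carrier, Dner, a Notch ligand-like protein, Serpina3g, Rnf138rt1 and Sit1, a lymphocyte adaptor, with log2 differences of -1.52 to -0.75. Slc25a20 and Sit1 had the region at the far end. Elfn2 and Slc25a20 were also at the list floor of 201 bp in KO replicate 1.

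Most gene lists had median differences near 0 between the genotypes. Basic machinery had median log2 KO minus WT differences near 0, for example 0.02 for ribosomal proteins and 0.01 for splicing factors, and pan-endothelial genes 0.03. Of the 39 pan-endothelial regions, 15 (38.5%, beside 17.8% of members) had both KO widths above both WT widths after normalisation. Both lay below in 6 (15.4%, beside 14.2% of members). As called, some of the 15 overlapped between the genotypes. The region of Tek, 1 of them, had 937 and 879 bp in KO libraries, against 889 and 908 bp in WT libraries. Of the 39, 0 had an unadjusted p under 0.05 (limma), beside 3.74% of members. At that threshold, the 35 regions of endothelial transcription factors and the 32 of VEGF and angiogenesis genes each held 1, a share near that of all members, so these counts are no result about the lists. The first was at Foxc1, a forkhead factor of vessel development, with 229 and 230 bp in the KO libraries, against 416 and 409 bp in the WT libraries. The other was at Angpt2, a Tie2 ligand, with 316 and 231 bp in KO libraries, against 459 and 412 bp in WT libraries. In both, the KO widths were below the WT widths. Of the 17 regions of aerocyte genes, 3 had an unadjusted p under 0.05, all narrower in KO, beside 3.74% of members in either direction. Among them the far end of Prx, encoding periaxin, had 434 and 479 bp in the KO libraries, against 912 and 841 bp in the WT libraries. Its log2 difference of -0.89 (limma adjusted p = 0.563) was -0.43 with the widest single peak (limma adjusted p = 0.948). Glp1r, a general capillary gene encoding a peptide hormone receptor, had 333 and 304 bp in KO libraries, against 201 and 247 bp in WT libraries, wider in KO but near the floor in WT.

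Developmental transcription factors had narrow regions, narrowest in 1 KO library. Of 50 such genes that Polycomb complexes cover in many tissues, 23 had a shared region at an end, in 30 regions with medians of 392.5 and 580 bp in the KO libraries, against 610.5 and 672 bp in the WT libraries. The median log2 KO minus WT difference was -0.21, beside 0.00 over all members, with 3 regions above in both KO libraries (10%, beside 17.8% of members) and 7 below (23.3%, beside 14.2%). Without KO replicate 1 the median was 0.02, and without KO replicate 2 it was -0.42, so KO replicate 1 set its sign. En1, a homeobox gene, had 201 bp, the list floor, and 665 bp in KO libraries, against 941 and 1029 bp in WT libraries. Its log2 difference of -1.34 was -0.48 without KO replicate 1 and -2.22 without KO replicate 2, so its size moved but not its sign. Irx3, also a homeobox gene, went the other way at its far end, with 583 and 595 bp in the KO libraries, against 468 and 467 bp in the WT libraries.

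The Hox genes, the clustered homeobox genes of body axis position, had narrow regions as well. Of 39 genes 22 had a shared region, in 24 regions with medians of 490.5 and 490 bp in KO libraries, against 663.5 and 609 bp in WT libraries. Both KO medians were below both WT medians. The median log2 difference was -0.10, and it was -0.04 without KO replicate 1, -0.21 without KO replicate 2 and between these without either WT library. After normalisation, both KO widths lay below both WT widths in 8 regions (33.3%, beside 14.2% of members) and above in 2 (8.33%, beside 17.8%). Of the 24 regions, 4 had an unadjusted p under 0.05, all narrower in KO, beside 3.74% of members in either direction. Hoxa7 had 413 and 242 bp in the KO libraries, against 672 and 722 bp in the WT libraries, a log2 difference of -1.11 (limma adjusted p = 0.804), and -0.72 without KO replicate 2. Hoxb4 had the widest region, with 1455 and 1280 bp in KO libraries, against 1389 and 1436 bp in WT libraries, where the groups overlapped. Regions of 1 Hox cluster are neighbours and are not independent.

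Lists with known links to DNA methylation had median log2 differences near 0, and 1 library moved them. Imprinted genes, expressed from 1 parental allele under DNA methylation control, had a region at 19 of 27 genes with a median log2 difference of -0.07. Without KO replicate 1 it was -0.0004 and without WT replicate 2 -0.01. Ndn had the region most narrow in KO, with 636 and 658 bp in the KO libraries, against 870 and 851 bp in the WT libraries. Germline genes that DNA methylation silences in body cells had a region at 5 of 24, in 6 regions with a median log2 difference of 0.05, which was -0.01 without KO replicate 2, and medians of 466 and 586.5 bp in KO libraries, against 555.5 and 591.5 bp in WT libraries. The meiotic gene Tex15 had 992 and 791 bp in the KO libraries, against 536 and 761 bp in the WT libraries. Zar1, an egg gene, had 1 region on each side, with 382 and 308 bp in KO libraries, against 207 and 299 bp in WT libraries at one and 354 and 683 bp in the KO libraries, against 775 and 839 bp in the WT libraries at the other. Among the methylation machinery, Zbtb38, which binds methylated DNA, had 525 and 528 bp in KO libraries, against 382 and 330 bp in WT libraries, a log2 difference of 0.66 (limma adjusted p = 0.663). Dnmt3a itself (chromosome 12, 3801559 to 3914443) had no shared region within 1000 bp of its ends. The nearest, 4940 bp inside, was 601 and 553 bp wide in the KO libraries, against 596 and 588 bp in the WT libraries, which did not check the genotype.

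At markers of blood cells, some regions had KO widths below and others above the WT widths. Itga2b, the platelet integrin, had 278 bp and 201 bp, the list floor, in KO libraries, against 555 and 558 bp in WT libraries. Of the 4 regions at platelet and erythroid markers, 3 had both KO widths below both WT widths after normalisation, beside 14.2% of members. Cx3cr1, a myeloid chemokine receptor, had 241 and 213 bp in KO libraries, against 382 and 440 bp in WT libraries. The other 3 myeloid regions, those of Itgax and Spi1, had log2 differences between -0.07 and 0.05, and the list's median was -0.01. Among lymphocyte markers Cd79b had 560 and 498 bp in the KO libraries, against 430 and 450 bp in the WT libraries. Cd3d went the same way, with a log2 difference of 0.33, whereas Cd2, Cd4 and Tcf7 had -0.15, -0.28 and -0.21, and the list's median was -0.15. None passed the adjusted threshold (limma), and the part of other cells in any width was not tested.

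The regions nearest to the 1000 bp limit of the definition are given with no test. Just inside lay those of Pgrmc1, with 201 and 228 bp in KO libraries, against 333 and 230 bp in WT libraries, and Slbp, with 453 and 463 bp in the KO libraries, against 413 and 618 bp in the WT libraries, and that of Mboat4. Just outside, at 1001 and 1002 bp, lay those of Ascl4, with 1081 and 602 bp in KO libraries, against 1050 and 1088 bp in WT libraries, and Zbtb7b, with 709 and 708 bp in the KO libraries, against 737 and 710 bp in the WT libraries, and that of Rab7.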

How the data were processed

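Nuclei of sorted lung endothelial cells were tagmented and amplified by PCR, per the labels' protocols. Picard, Bowtie2, cutadapt and the build mm10 are named, with no versions or roles, per the submitters' processing notes. The peak caller, its threshold, any filter of reads and any shift for the transposase are not given in the sources used here. Each deposited list gives chromosome, start, end, width and strand per peak of 1 library, per the file headers. The unit used is peak width in base pairs, as deposited by the authors and not normalised by them, with no score, fold or count. A threshold or depth that differed between libraries would move both the calls and the widths.

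The members, gene lists and tests were chosen with earlier results of these data known. Gene spans came from the RefSeq gene table (GRCm38.p6), and strand and promoter sequence from the RefSeq promoter table. Of 794 list genes 791 matched. Widths were log2-transformed, quantile-normalised over the 75395 regions called in all 4 lists and compared with limma (lmFit, eBayes with trend), with log2 differences as KO minus WT and Benjamini-Hochberg adjustment at 0.05. Library values were compared by two-sided exact permutation or sign-flip tests. The named regions were the 12 widest, the 12 narrowest, the 12 with the smallest p in each direction among those whose normalised widths did not overlap, the widest and the most KO-wide and WT-wide of each list, the 3 regions on each side of 1000 bp, the cell type markers, and Dnmt3a. Some items that this rule gave are not reported here. The printed sequences were taken from these sets, and Anxa1 from the next narrowest starts. Genes named as having or lacking a region, and the remaining list members, were picked as examples after their values were seen.

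Alternatives covered windows of 500 and 2500 bp, the widest single peak, an overlap of 100 bp, autosomes only, regions with 1 peak in every list, a mean width of at least 300 bp, median scaling, no normalisation, the replicate number as a block, and leaving out each library. The crossed block and the list medians without each library were added after the data were seen. The fit was tested on simulated data. The work used limma 3.58.1 in R 4.3.3, and scipy 1.17.1, pandas 2.3.3, numpy 2.4.6 and matplotlib 3.10.9 in Python 3.11.15.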

Additional observations from a re-analysis of the deposited data

How the results depend on the processing

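No region passed an adjusted p of 0.05 (limma) under any of the 15 alternatives. At an unadjusted p under 0.05, the count wider in KO was 125, and 83 within 500 bp, 222 within 2500 bp and 58 with no normalisation. Without 1 library in turn it was 58 to 1386, and the count narrower in KO, 375, was 144 to 1599. Both counts were highest without KO replicate 2, were also higher without KO replicate 1 (401 and 989) and were lower without WT replicate 1 (58 and 152) or WT replicate 2 (62 and 144). A lone library is then assumed to vary like the other group. Over all shared regions, the share at that threshold also rose without either KO library and fell without either WT library. The swing was thus not particular to gene ends. Regions with KO widths above WT widths numbered 2377, but 3659 after median scaling, 668 with no normalisation and 3599 to 6354 without 1 library. Those below numbered 1895, but 3379 with no normalisation and 3038 to 6136 without 1 library, where fewer libraries have to be apart. The cause of the other shifts was not tested. Under these settings, counts of non-overlapping widths are given for gene ends only. Whether gene ends differ there from other shared regions was not tested. Gene ends held 17.7% of the shared regions, and 14.5% within 500 bp, 23.9% within 2500 bp and 16.9% among regions with 1 peak in every list, since the window and the regions themselves change. The KO minus WT difference in median width was -19 bp, and -56 to 18 bp without 1 library, above 0 only without KO replicate 2. The KO minus WT difference in the ratio of gene ends to elsewhere was 0.032, and -0.0044 to 0.068 without 1 library, below 0 only without KO replicate 1. The replicate numbers are not stated to pair the libraries, and deviations of same-numbered libraries correlated at r = -0.13 over members. With the replicate block the difference in medians was -19 bp, 0 regions passed, and 106 and 390 were wider and narrower in KO. Numbers crossed between the genotypes gave 123 and 432. The start to far end and gene end to elsewhere ratios kept their sign in every alternative run for them. Depth is unknown, so a narrow or missing peak cannot be told apart from shallow sequencing.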

Other observations

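Other gene families at gene ends had the following shared regions. Among solute carrier genes, which move ions and nutrients across membranes, 239 of 375 had one, with median widths of 804 and 756 bp in the KO libraries and 791 and 792.5 bp in the WT libraries. Ras-related Rab genes, which steer vesicles, had one at 61 of 69, with 911.5 and 787 bp in the KO libraries and 843 and 866.5 bp in the WT libraries. Trim ubiquitin ligase genes had one at 40 of 68, collagen genes at 23 of 44 and protocadherin genes at 32 of 69. The Rab regions were wider than the members' median in every library, and the collagen regions narrower, with 465.5 and 566.5 bp in the KO libraries and 578 and 598 bp in the WT libraries. Of 8 keratin regions, 4 had both KO widths below both WT widths after normalisation, beside 14.2% of all members, and 0 above, beside 17.8%.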
